A study of Carassius auratus with 9 samples.

Results

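Hefang crucian carp (Carassius auratus), a cultured strain bred for fast growth, were fed for 8 weeks, and poly(A) RNA of their muscle was sequenced. The methods of the study state that the fish were fasted before sampling, so the values are those of fasted fish. The comparison described here set the 6 libraries of fish given added amino acids against the 3 libraries of fish given none, which together are all 9 libraries of the series. The LA group received a basal feed with no added methionine (Met) or lysine (Lys), the MA group 1.7% Met with 3.4% Lys, and the HA group 3.4% Met with 3.4% Lys. Both supplemented groups therefore shared the same added Lys and differed in Met, and since no group received Met or Lys alone, an effect of one cannot be told apart from an effect of the other. A gene was described as a common response only where it moved the same way against LA in both MA and HA. The LA libraries stand under the codes HA1 to HA3 in the deposited table, the MA libraries under HB and the HA libraries under HC, and diets were assigned by the sample descriptions, where the codes stand alone. The labels do not say which fish or tank each library came from. The methods speak of 3 biological replicates per diet without giving the fish behind each, so the p-values measure the spread between these libraries, which may be technical.

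Met and Lys are the amino acids that most often limit the growth of fish on plant-based feeds. Met is the precursor of S-adenosylmethionine, the methyl donor of the cell, and its sulfur passes on to cysteine, glutathione and taurine, while Lys is built into protein and, once methylated, into carnitine. Muscle is the main store of body protein in fish, where amino acid supply acts on protein synthesis through mTOR and on breakdown through the proteasome, autophagy and calpains, and its mass is mostly fast fibers, with slow fibers in a thin lateral band.

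Total counts per library ranged from 13962770 to 17177610, and 23946 of 76298 genes had enough counts to be tested. Values per library are counts relative to library size (CPM) scaled by TMM factors, so they compare a gene between libraries and not one gene with another. Fold changes are log2 differences between the mean of the MA and HA coefficients and the LA coefficient in edgeR's quasi-likelihood test, with Benjamini-Hochberg adjustment over all 23946 genes. The labelled tissue was borne out by its markers, since 26 genes of muscle creatine kinase, parvalbumin, fast troponin T, myosin light chain and sarcomeric actin summed to 271200 to 399300 CPM. Some libraries resembled each other more than their diets would set them together. LA1 and HA2, which belong to different diets, were the most alike pair of all: across 4562 genes their absolute log2 ratio had a median of 0.12, where the next pair, MA1 and MA3, had 0.205. Genes were taken whose values in libraries 1 and 2 of a diet lay 8-fold or more apart, with 8 CPM or more in the higher. Library 3 of the same diet lay 0.2 to 0.8 of the way from one to the other in 97.7% to 99.2% of them. By the same rule, 18 other trios of libraries gave 6.43% to 73.2%. Results that turn on LA1 or HA2 are therefore given with and without them. The study also reported the share of reads that mapped to the genome, called mapped share below. Within the diets it was lowest in LA1, MA2 and HA2 and highest in LA2, MA1 and HA1, with library 3 between.

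Of 23946 genes, 1 passed in the pooled comparison (0.00418%), and it fell. This gene was GTPase IMAP family member 8-like (LOC113054740, chromosome 3, 14128047 to 14190658 on ASM336829v1), of a family of GTPases known from lymphocytes in mammals. It had 15.9, 23.6 and 18.9 CPM in the LA libraries, 0.192, 0 and 0 CPM in MA (3 reads in all), and 9.04, 15.3 and 12.3 CPM in HA. All 6 supplemented libraries lay below all 3 LA libraries, although the highest HA library came close to the lowest LA library. The pooled log2 fold change was -4.38 (SE 0.40, adjusted p = 0.0200), made up of -8.08 in MA (adjusted p = 0.00400) and -0.67 in HA (adjusted p = 0.865). The change differed between the diets (HA minus MA 7.41, adjusted p = 0.00574). The sign was thus the same in both diets, but the transcript was nearly absent in MA alone. Leaving out LA2, LA3, MA2, MA3, HA1 or HA3 ended the call (adjusted p = 0.0748 to 0.227 in edgeR), and leaving out LA1, MA1 or HA2 kept it (adjusted p = 0.00137 to 0.0183). With 1 coefficient for all 6 supplemented libraries, which puts the difference between MA and HA into the spread, the call was also lost (-1.67, adjusted p = 0.837).

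No gene rose at an adjusted p under 0.05 in edgeR. At an unadjusted p under 0.05, 882 genes were higher (3.68%) and 1227 lower (5.12%) in the supplemented libraries, 2109 in all (8.81%), of which 2064 had the same sign in MA and HA. The 6 supplemented libraries lay entirely above the 3 LA libraries in 362 genes (1.51%) and entirely below them in 412 (1.72%), which is 3.23% together. When each diet had to pass on its own, at an unadjusted p under 0.05 with a change of 1 or more on the log2 scale, 377 genes remained (1.57%), 148 higher and 229 lower in both, beside 7 with opposite signs. Both diets were compared with the same 3 LA libraries, so the changes of a gene in MA and HA are not independent of each other. DESeq2 on the same genes and contrast called 220 (0.919%), 92 higher (0.384%) and 128 lower (0.535%), 213 of them with the same sign in both diets. MA and HA differed from each other in 13 genes (0.0543%).

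**Figure D1:**
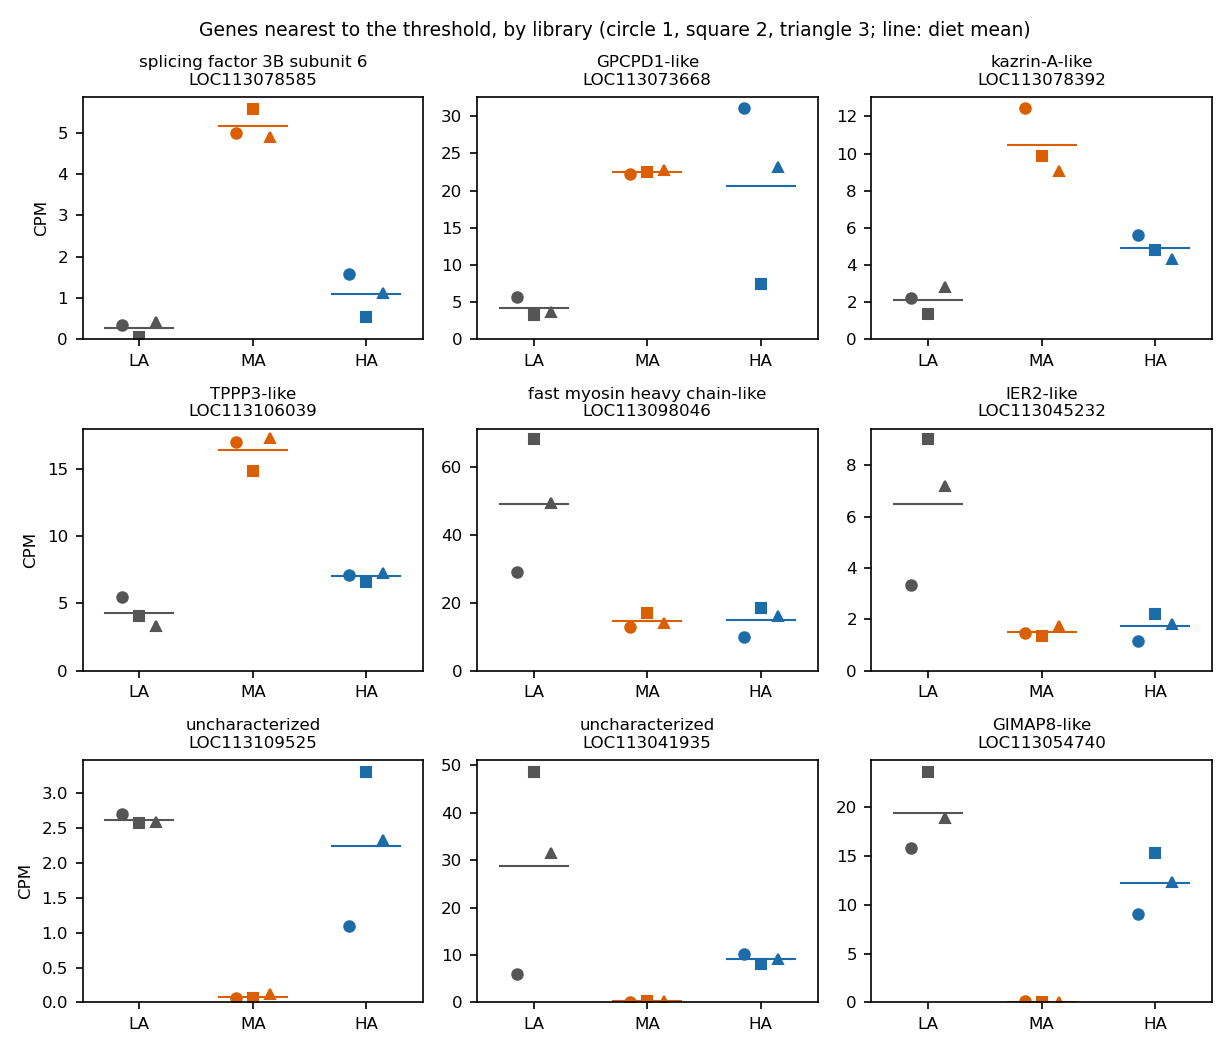
TMM-scaled CPM (vertical axis, linear from 0) of 9 of the genes nearest to the threshold in either direction, by diet; points are libraries 1 (circle), 2 (square) and 3 (triangle) and the line is the diet mean. GIMAP8-like, the only gene that passed, is near 0 in the 3 MA libraries and at 9.04 to 15.3 CPM in HA, while GPCPD1-like, fast myosin heavy chain-like LOC113098046 and IER2-like lie at similar levels in both supplemented diets.

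The genes of smallest p that were higher in both supplemented diets did not pass. Kazrin-A-like (LOC113078392), a protein of cell junctions, had 2.20, 1.38 and 2.80 CPM in LA, 12.5, 9.86 and 9.06 in MA and 5.62, 4.82 and 4.34 in HA. Its groups did not overlap, and MA lay above HA (log2 fold change 1.75, SE 0.26, adjusted p = 0.220). A copy of the microtubule-stabilizing tubulin polymerization-promoting protein family member 3 (TPPP3-like, LOC113106039, chromosome 7, 14652469 to 14658866) had 5.47, 4.08 and 3.30 CPM in LA, 17, 14.8 and 17.3 in MA and 7.14, 6.61 and 7.29 in HA (1.32, SE 0.20, adjusted p = 0.220). Here, too, the step was larger in MA, and without LA1 the gene rose (1.54, adjusted p = 0.00656).

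Glycerophosphocholine phosphodiesterase GPCPD1-like (LOC113073668) was the one of these genes with nearly equal differences in both diets. This enzyme releases choline from glycerophosphocholine, and its transcript had 5.69, 3.29 and 3.73 CPM in LA, 22.2, 22.4 and 22.7 in MA and 31.1, 7.5 and 23.2 in HA. The log2 fold change was 2.34 (SE 0.42, adjusted p = 0.245), 2.40 in MA and 2.28 in HA, with HA2 nearest to LA. Without HA2 the gene rose (2.54, adjusted p = 0.0183 in edgeR), and likewise without LA1 (2.62, adjusted p = 0.0344). Splicing factor 3B subunit 6 (LOC113078585), part of the U2 particle of the spliceosome, had 0.355, 0.0658 and 0.430 CPM in LA, 4.99, 5.58 and 4.90 in MA and 1.59, 0.551 and 1.13 in HA (3.05, SE 0.50, adjusted p = 0.220).

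Among genes lower in both diets, 2 described genes differed from LA by nearly the same amount in MA and HA, also short of the threshold. Immediate early response gene 2 protein-like (LOC113045232, chromosome 3, 6542480 to 6543846), a nuclear protein induced by growth stimuli, had 3.34, 9.02 and 7.17 CPM in LA, 1.47, 1.36 and 1.74 in MA and 1.16, 2.20 and 1.82 in HA. Its log2 fold change was -2.0 (SE 0.31, adjusted p = 0.220), -2.09 in MA and -1.91 in HA. A second copy (LOC113047210) had -2.05 (SE 0.41, adjusted p = 0.252), and both copies fell once LA1 was left out (adjusted p = 0.00313 and 0.0137). One copy of the fast fiber myosin heavy chain (LOC113098046) had 29.2, 68.3 and 49.4 CPM in LA, 12.8, 17 and 14.1 in MA and 9.95, 18.7 and 16.0 in HA. Its log2 fold change was -1.73 (SE 0.27, adjusted p = 0.220), -1.74 in MA and -1.72 in HA. The uncharacterized genes LOC113041935 (-4.21, SE 0.60, adjusted p = 0.220) and LOC113109525 (-2.52, SE 0.38, adjusted p = 0.220) were near 0 in MA, and in both the LA and HA libraries overlapped.

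**Figure D2:**
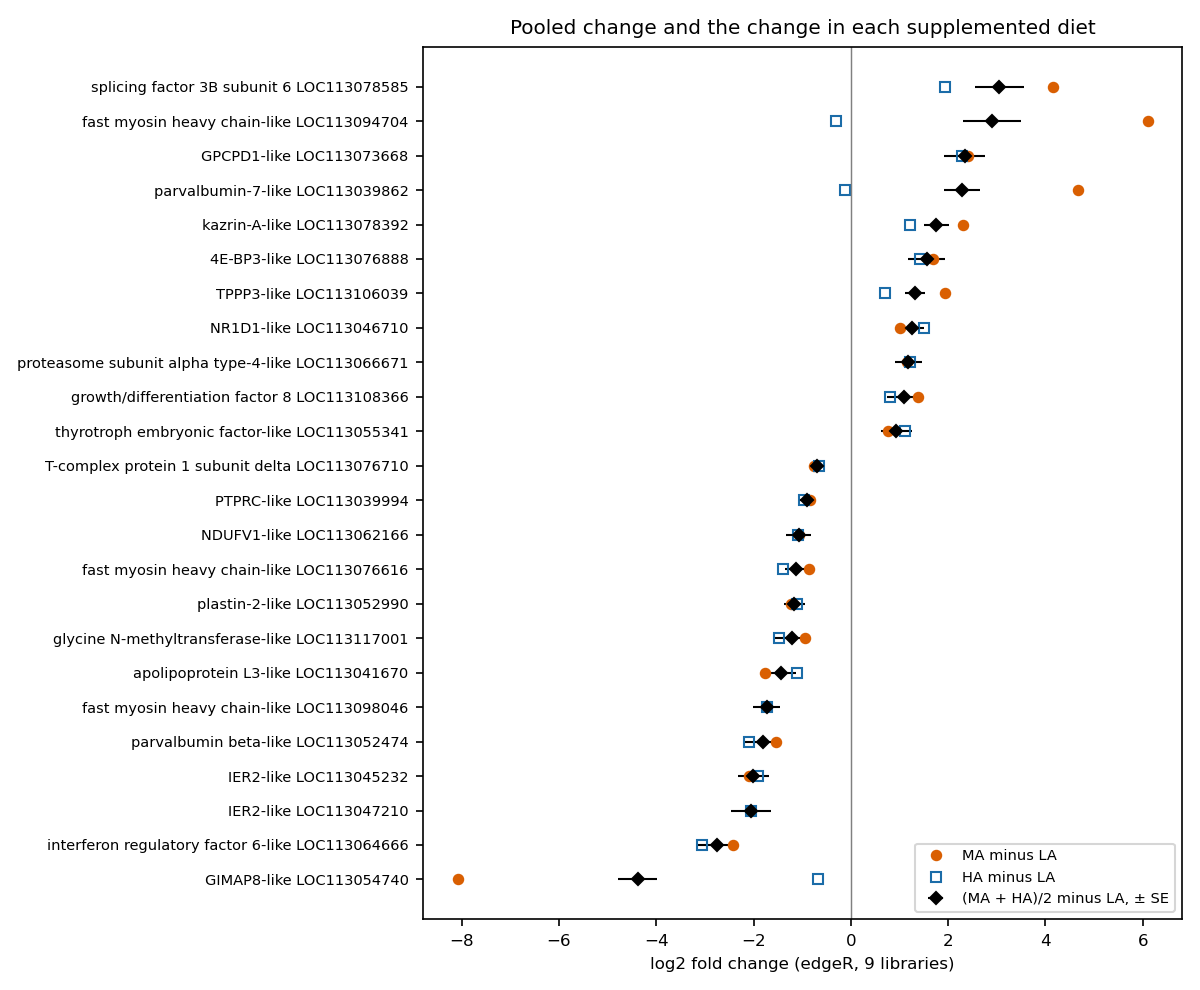
Log2 fold change against LA (horizontal axis) of 24 genes named in the text: the pooled change with its SE (diamonds), the change in MA (filled circles) and in HA (open squares). The diets lie together for GPCPD1-like (2.40 and 2.28), the IER2-like copies and fast myosin heavy chain-like LOC113098046, and apart for GIMAP8-like, parvalbumin-7-like and fast myosin heavy chain-like LOC113094704, of which only GIMAP8-like passed.

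Genes that handle the supplemented amino acids themselves were compared next, and none passed. Over all genes, 3.68% were higher and 5.12% lower at an unadjusted p under 0.05, the background for this and the following lists. In the list of the methionine cycle, transsulfuration and polyamine synthesis, 28 of 44 tested genes were negative (median log2 fold change -0.11, against -0.03 over all genes), and 6 were lower and 0 higher at an unadjusted p under 0.05, which is 13.6% of the list. Glycine N-methyltransferase-like (LOC113117001), which uses up excess S-adenosylmethionine, had 1.64, 4.35 and 2.30 CPM in LA, 1.60, 1.23 and 1.49 in MA and 1.34, 0.482 and 1.13 in HA. All supplemented libraries lay below all LA libraries, LA1 by a narrow margin (-1.20, SE 0.38, adjusted p = 0.391). Ornithine decarboxylase-like (LOC113060385), the entry enzyme of polyamine synthesis, was also apart in all libraries (-1.10, SE 0.41, adjusted p = 0.488). Adenosylhomocysteinase B-like (LOC113050260), which splits S-adenosylhomocysteine, had -0.81 (SE 0.28, adjusted p = 0.434), with -1.27 in MA and -0.34 in HA. Cysteine dioxygenase type 1-like (LOC113106915), the first step from cysteine to taurine, had -0.71 (SE 0.25, adjusted p = 0.457). Without LA1 the median of the list was 0.01, so the tilt of the list was not stable to that library.

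Of 11 tested genes of lysine breakdown and carnitine synthesis, 9 were negative (median -0.20) and none reached an unadjusted p under 0.05. Amino acid and peptide transporters were evenly split, with 26 of 50 positive, and 3 higher (6%) and 3 lower (6%) at an unadjusted p under 0.05. High affinity cationic amino acid transporter 1-like (LOC113092434), which imports Lys and arginine, had 7.11, 11.4 and 9.40 CPM in LA, 32.7, 9.86 and 19.6 in MA and 36.9, 10.3 and 23.3 in HA. Library 2 of each supplemented diet stayed within the LA range (1.25, SE 0.45, adjusted p = 0.469). Sodium-coupled neutral amino acid transporter 2 (LOC113085076), known in mammals to be induced when amino acids are scarce, was lower in all 6 supplemented libraries (-1.09, SE 0.42, adjusted p = 0.497). Among 22 targets of ATF4, the transcription factor of the amino acid shortage response, 8 were positive (median -0.13) and none reached an unadjusted p under 0.05. Without LA1 this turned to 15 of 22 positive (median 0.29).

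Of 131 genes of mTOR and insulin-like growth factor signaling, 69 were positive (median 0.03). At an unadjusted p under 0.05, 6 were higher (4.58%, against 3.68% of all genes) and 3 lower (2.29%, against 5.12%). Eukaryotic translation initiation factor 4E-binding protein 3-like (LOC113076888), of a family of translation repressors that mTOR inactivates, had 2.70, 0.593 and 1.51 CPM in LA, 4.22, 5.06 and 6.14 in MA and 4.46, 4.20 and 4.27 in HA. All supplemented libraries lay above LA (1.56, SE 0.39, adjusted p = 0.297), and without LA1 the gene rose (2.17, adjusted p = 0.0208). Ras-related GTP-binding protein C-like (LOC113062387), a GTPase that passes the amino acid signal to mTOR, was the other member that passed without LA1, and it fell (-1.85, adjusted p = 0.0466), with 0.640 CPM in LA1, 2.37 and 2.44 in LA2 and LA3 and 0.440 to 0.916 in the supplemented libraries. GATOR complex protein MIOS (LOC113059288), part of the amino acid sensing arm upstream of mTOR, was also apart (0.56, SE 0.21, adjusted p = 0.475). Insulin-like growth factor 1 receptor (LOC113051989) was lower in all supplemented libraries (-0.74, SE 0.21, adjusted p = 0.355). Of 70 antioxidant and glutathione genes, 42 were positive with a median of 0.03, and mitochondrial superoxide dismutase [Mn]-like (LOC113062790) had 0.66 (SE 0.23, adjusted p = 0.449).

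Of 64 fast sarcomere genes, 42 were negative (median -0.19), 12 were lower at an unadjusted p under 0.05 (18.8%, against 5.12% of all genes) and 8 lay entirely below LA (12.5%, against 1.72%), while 5 were higher. Without LA1 the median was -0.08 with 30 positive. The list summed to 283600 to 299300 CPM in LA, 232700 to 324200 in MA and 238000 to 270500 in HA, so the sums of LA and MA overlapped. Parvalbumin beta-like (LOC113052474), a calcium buffer of fast fibers, had 534, 1636 and 1195 CPM in LA, 339, 490 and 336 in MA and 142, 433 and 211 in HA (-1.81, SE 0.38, adjusted p = 0.253). A second fast myosin heavy chain-like copy (LOC113076616) was likewise below LA in every supplemented library (-1.13, SE 0.22, adjusted p = 0.252). Troponin T, fast skeletal muscle isoforms-like (LOC113043568), had 1.07, 42.6 and 28.0 CPM in LA and 1.17 to 4.09 CPM in the supplemented libraries, so LA1 lay with the latter (-3.19, SE 0.74, adjusted p = 0.276). Without LA1, 6 members of the list fell and 1 rose, and those that fell included the 3 genes above and the myosin heavy chain copy LOC113098046. Over all genes in that fit, 1.55% fell and 0.181% rose.

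Other fast copies were high in MA alone. Parvalbumin-7-like (LOC113039862) had 4.55, 8.82 and 6.31 CPM in LA, 85.8, 260 and 159 in MA and 6.41, 6.40 and 5.28 in HA, and a fast myosin heavy chain-like copy (LOC113094704) had 5.05 to 16.7 CPM in LA, 202 to 1386 in MA and 8.61 to 10.5 in HA. Both had opposite signs in the diets and differed between them (HA minus MA -4.80 and -6.40, adjusted p = 0.00607 and 0.0270), so neither was a common response although their pooled log2 fold changes were 2.28 and 2.90. Of 73 slow and cardiac sarcomere genes in the table, 10 had enough counts to be tested. A gene could pass the low-count filter through MA alone, so the list favors genes that were high there. Of the 10, 8 were positive (median 1.55, 2.26 in MA and 0.61 in HA), and 5 had an unadjusted p under 0.05. None of the 10 separated the 6 supplemented libraries from LA. Myosin-7-like (LOC113095892), a slow and cardiac myosin heavy chain, had 0.213, 0.329 and 0.215 CPM in LA, 1.98, 19.6 and 9.62 in MA and 0.916, 0.207 and 1.19 in HA (3.45, SE 0.86, adjusted p = 0.297). These genes were low in most libraries, and with at least 10 counts asked of every library only 2 of the 10 remained (median -0.21).

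In the list of Z-disc, M-band and titin genes, 54 of 117 were positive. At an unadjusted p under 0.05, 14 were higher (12%, against 3.68% of all genes) and 7 lower (5.98%, against 5.12%). Ankyrin repeat domain-containing protein 1-like (LOC113117126), a stretch-responsive titin partner, had 3.20, 18.3 and 13.8 CPM in LA, 0.640, 2.72 and 1.99 in MA and 1.10, 1.86 and 1.01 in HA. Each supplemented library lay below LA (-2.94, SE 0.52, adjusted p = 0.245), and the gene fell without LA1 (-3.38, adjusted p = 0.00375). Another member of the list rose in that fit. Of 35 myogenic factors, 18 were positive. Growth/differentiation factor 8 (LOC113108366), which is myostatin, an inhibitor of muscle growth, had 20.8, 7.77 and 13.8 CPM in LA, 20.2, 50.6 and 39.9 in MA and 27.2, 22.1 and 25.1 in HA (1.10, SE 0.35, adjusted p = 0.396). Myoblast determination protein 1 homolog (LOC113067086), a master regulator of the muscle lineage, had 25.2, 9.09 and 13.7 CPM in LA and 22.2 to 38.3 CPM in the supplemented libraries (0.80, SE 0.31, adjusted p = 0.509). In both genes the LA1 value reached the supplemented range. All 15 genes for which the study designed qPCR primers, including its reference gene beta-actin, were found by accession and tested. None passed in the pooled comparison, 9 being positive, 10 of the same sign in both diets and 2 with an unadjusted p under 0.05. By qPCR, on more fish per diet, the study compared the diets with each other and reported several of these genes highest in MA. It also reported MyoG rising with the amino acid level and GSTO1 higher in both supplemented diets. For Myhc, Myf5 and Keap1 it reported no significant difference. Its MyHC primer matched LOC113094704, the myosin heavy chain copy that was high in MA alone here. For a set of muscle and lipid genes, the study described its qPCR trends as those of its RNA-seq. The pooled contrast averages MA and HA, and why none of the primer genes passed in it was not tested.

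**Figure D3:**
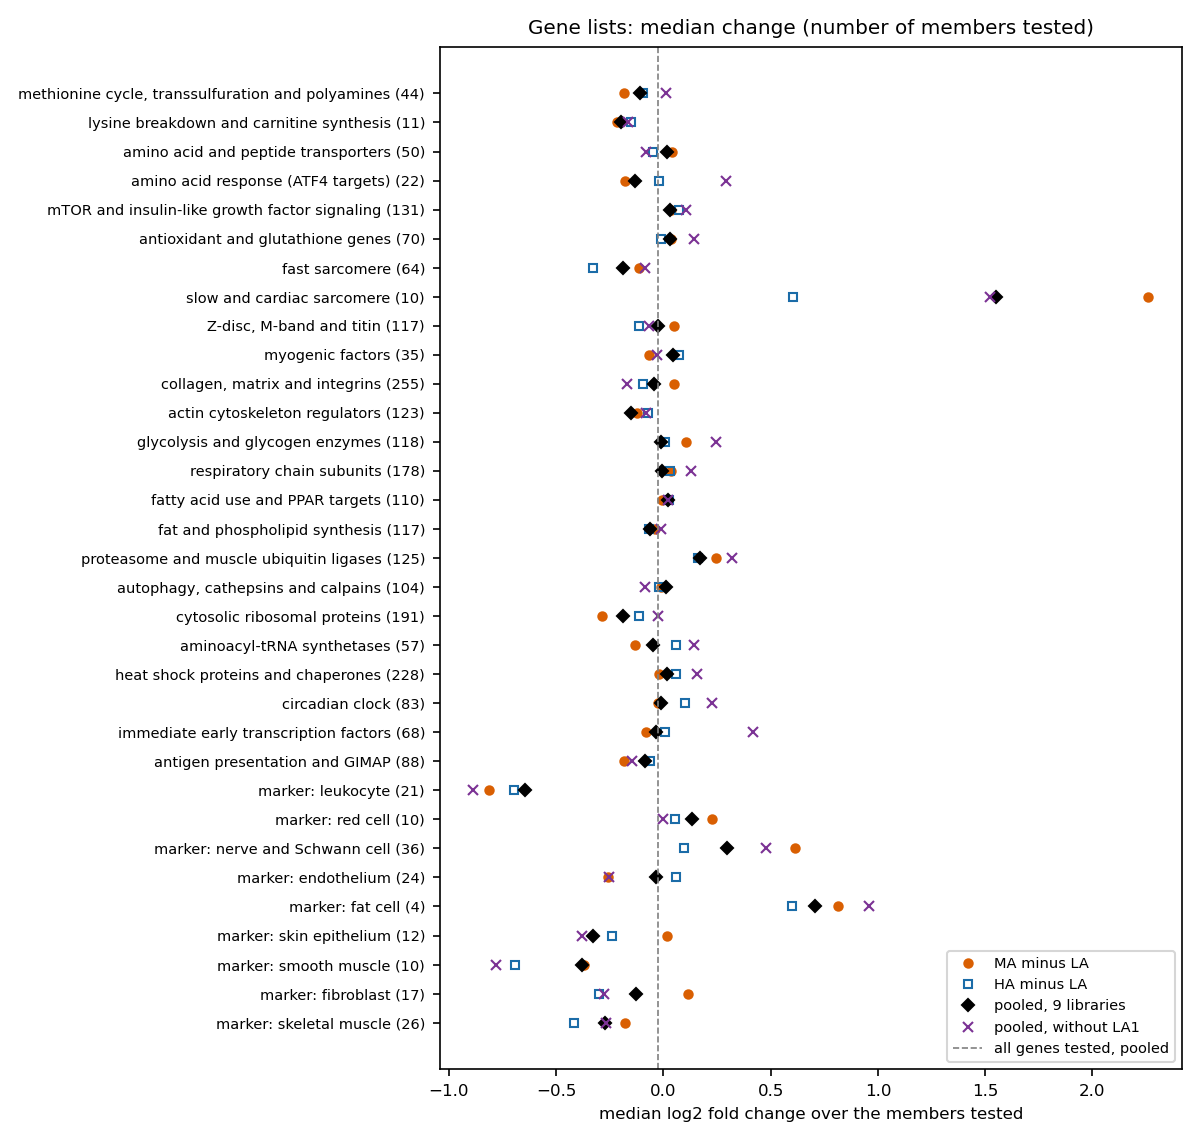
Median log2 fold change (horizontal axis) over the tested members of each gene list, whose number is in parentheses: MA against LA (circles), HA against LA (open squares), pooled (diamonds) and pooled without LA1 (crosses); the dashed line is the median of all 23946 genes (-0.03). Proteasome genes (0.17) and leukocyte markers (-0.65) keep their side of the dashed line in all 4 values, whereas the median of the methionine cycle list moves from -0.11 to 0.01 without LA1. Slow sarcomere genes (1.55) keep theirs too, but with at least 10 counts in every library only 2 of the 10 remained (median -0.21).

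Of 125 genes of the proteasome and the muscle ubiquitin ligases, 95 were positive (76.0%, against 47.3% of all genes), with a median of 0.17, 0.24 in MA and 0.16 in HA. At an unadjusted p under 0.05, 18 were higher (14.4%) and 2 lower, and 9 lay entirely above LA (7.20%, against 1.51% of all genes). Proteasome subunit alpha type-4-like (LOC113066671), of the core particle, had 2.70, 1.45 and 1.79 CPM in LA, 5.24, 3.50 and 4.41 in MA and 5.92, 3.86 and 4.02 in HA (1.18, SE 0.28, adjusted p = 0.279). The regulatory subunits psmd8 (0.60, SE 0.16, adjusted p = 0.326) and 26S proteasome non-ATPase regulatory subunit 9-like (LOC113051722, 0.79, SE 0.21, adjusted p = 0.326) were also apart in every library. Proteasome activator complex subunit 4A (LOC113056764) had 6.97, 0.724 and 2.94 CPM in LA and 7.04 to 16.3 CPM in the supplemented libraries (1.91, SE 0.55, adjusted p = 0.357), with LA1 just under MA1. The median of this list stayed between 0.14 and 0.23 with any library other than LA1 left out and was 0.32 without LA1, when 3 members rose. Over all genes, 0.181% rose without LA1. Calpain small subunit 1-like (LOC113114868), shared by the classical calpain proteases, lay above LA in all 6 libraries (0.65, SE 0.19, adjusted p = 0.357), as did calpain-1 catalytic subunit-like (LOC113092341, 0.51, SE 0.17, adjusted p = 0.406). The list of autophagy, cathepsins and calpains as a whole had 53 of 104 positive.

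Cytosolic ribosomal protein genes were negative in 162 of 191 (median -0.19), yet only 3 were higher and 5 lower at an unadjusted p under 0.05, and none separated the groups. Without LA1 the median was -0.03 with 82 positive, while 2 members fell, where 1.55% of all genes fell in that fit. With all 9 libraries and mapped share as a covariate the median was -0.21, with 4 higher and 29 lower at an unadjusted p under 0.05. In that fit 13.6% of all genes reached this level in either direction. With replicate number as a block the median was -0.22. The median of the list thus turned on LA1 and changed little with either model, while the number of lower genes was larger with the covariate. 60S ribosomal protein L38 (LOC113080025) had 0.427 CPM in LA1, 20.2 in LA2 and 11.9 in LA3, and 0.344 to 1.74 in the supplemented libraries (-3.50, SE 0.77, adjusted p = 0.259), and without LA1 it fell (-4.06, adjusted p = 0.00132). 40S ribosomal protein S10 (LOC113050171) fell likewise (-1.87, adjusted p = 0.00498), with 15.4 CPM in LA1, 83.9 and 59.8 in LA2 and LA3 and 12.6 to 34.6 in the supplemented libraries. Of 57 aminoacyl-tRNA synthetases, 25 were positive and 1 reached an unadjusted p under 0.05, and without LA1 35 were positive. Of 228 heat shock proteins and chaperones 117 were positive with all libraries and 152 without LA1 (median 0.01 and 0.16). In that list T-complex protein 1 subunit delta (LOC113076710), of the chaperonin that folds actin and tubulin, had 28.1, 31.5 and 29.3 CPM in LA, 18, 18.6 and 16.3 in MA and 18, 20.9 and 17.8 in HA. The spread within each diet was small and the difference alike in MA and HA (-0.75 and -0.65), giving -0.70 (SE 0.14, adjusted p = 0.253). Heat shock 70 kDa protein 1-like (LOC113107614) lay below LA in all 6 libraries (-1.02, SE 0.19, adjusted p = 0.245), and dnaJ homolog subfamily B member 6-like (LOC113053567), a co-chaperone of the sarcomere, above it (0.94, SE 0.18, adjusted p = 0.250).

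Of 118 glycolysis and glycogen genes 58 were positive, with 12 higher (10.2%, against 3.68% of all genes) and 6 lower (5.08%) at an unadjusted p under 0.05. Without LA1 75 were positive and the median went from -0.01 to 0.24. Fructose-bisphosphate aldolase A (LOC113050324) had 2.70, 1.45 and 2.01 CPM in LA, 19.1, 128 and 70.4 in MA and 17.1, 3.37 and 8.54 in HA (3.69, SE 0.72, adjusted p = 0.250). Muscle type 6-phosphofructokinase-like (LOC113050368), a control point of glycolysis, had 37.4, 94.7 and 72.4 CPM in LA and 29.8 to 41.2 in the supplemented libraries (-0.94, SE 0.25, adjusted p = 0.319), and it fell without LA1 (-1.23, adjusted p = 0.00800). Other members of the list rose in that fit. Of 178 respiratory chain subunits 88 were positive, and 118 without LA1 (median -0.01 and 0.13). Copies of NADH dehydrogenase flavoprotein 1-like, a subunit of complex I, went apart in opposite directions: LOC113062166 had 12.8, 19.6 and 18.1 CPM in LA and 5.56 to 11.4 in the supplemented libraries (-1.07, SE 0.26, adjusted p = 0.280), while LOC113062366 had 2.30 to 6.54 CPM in LA and 6.88 to 20.8 in the supplemented libraries (1.33, SE 0.35, adjusted p = 0.315). Goldfish carry many near-identical copies between which reads may be split, so single copies are less certain than their counts.

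Genes of fatty acid use (57 of 110 positive) and of fat and phospholipid synthesis (54 of 117 positive) stayed near the background as lists. An adiponectin-like copy (LOC113045969), a hormone of fat cells, had 0.355, 0 and 0.143 CPM in LA, 3.01, 7.91 and 5.71 in MA and 3.79, 0.207 and 2.26 in HA (4.32, SE 0.98, adjusted p = 0.268), with HA2 in the LA range. All 4 tested fat cell markers were positive, with sums of 27.7 to 38.8 CPM in LA and 35.7 to 52.1 CPM in the supplemented libraries, which overlapped. Adiponectin is itself on the list of fat cell markers, so the list is not a separate measure. Whether more fat cell RNA took part in the adiponectin-like values was not tested. In the list of fatty acid use, apolipoprotein L3-like (LOC113041670) lay below LA in all 6 libraries (-1.43, SE 0.30, adjusted p = 0.253).

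Of 83 circadian clock genes, 7 were higher (8.43%, against 3.68% of all genes) and 1 lower at an unadjusted p under 0.05, and 38 were positive (median -0.01). Without LA1 55 were positive (median 0.23). NR1D1-like (LOC113046710), a copy of the nuclear receptor known in mammals as Rev-erb alpha, which represses genes of the clock, had 2.91, 1.45 and 1.94 CPM in LA, 4.35, 3.83 and 4.47 in MA and 6.41, 5.03 and 6.35 in HA. The LA libraries lay below all others (1.25, SE 0.25, adjusted p = 0.252), and the gene rose without LA1 (1.56, adjusted p = 0.0166). Thyrotroph embryonic factor-like copies, which are clock-controlled activators, had 1.03 (LOC113111722, SE 0.29, adjusted p = 0.352) and 0.94 (LOC113055341, SE 0.32, adjusted p = 0.429). Nuclear factor interleukin-3-regulated protein-like (LOC113067724), which represses the same sites, had 56.7, 16.6 and 28.4 CPM in LA, 120, 85.6 and 106 in MA and 55.3, 51.1 and 56 in HA. It overlapped through LA1 (1.15, SE 0.34, adjusted p = 0.358) and rose without that library (1.74, adjusted p = 0.0132). The labels do not give the time of day at which each fish was sampled, and its part in these values was not tested. Of 68 immediate early transcription factor genes 33 were positive, 49 without LA1 (median 0.42) and 22 without LA2 (median -0.22), so the direction of the list turned on a single library.

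Leukocyte genes lay lower in both supplemented diets than in LA2 and LA3. Of 21 tested leukocyte markers 19 were negative (median -0.65, -0.81 in MA and -0.69 in HA). At an unadjusted p under 0.05, 7 were lower (33.3%, against 5.12% of all genes) and 1 higher. In the table, 3 of 40 marker genes had no count. In bulk tissue, fewer cells of a type and less RNA per cell cannot be told apart. Receptor-type tyrosine-protein phosphatase C-like (LOC113039994), which encodes the leukocyte surface protein CD45, had 11.9, 16.0 and 14.1 CPM in LA, 8.12, 8.17 and 7.38 in MA and 7.14, 7.57 and 6.79 in HA. The groups did not overlap, and the difference was alike in MA and HA (-0.83 and -0.97), giving a pooled log2 fold change of -0.90 (SE 0.15, adjusted p = 0.220). Plastin-2-like (LOC113052990), an actin-bundling protein of leukocytes, had 11.6, 24.6 and 20.5 CPM in LA, 7.61, 8.43 and 8.07 in MA and 8.91, 9.22 and 8.36 in HA (-1.17, SE 0.22, adjusted p = 0.245). Coronin-1A-like (LOC113047042), of the leukocyte actin cortex, had 8.32, 33.8 and 28.0 CPM in LA and 6.42 to 9.59 in the supplemented libraries, with LA1 among the latter (-1.50, SE 0.35, adjusted p = 0.276). The summed level of the list was 249, 585 and 467 CPM in LA1 to LA3, 366, 259 and 309 in MA1 to MA3 and 357, 234 and 301 in HA1 to HA3. LA2 and LA3 alone thus stood above the supplemented libraries. Within each diet the sum was lowest in the library of lowest mapped share (LA1, MA2, HA2). It was highest in the library of highest mapped share (LA2, MA1, HA1). With mapped share as a covariate the median of the list was -0.43. The median of the list was -0.89 without LA1 and -0.40 without LA2.

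The other marker lists differed less evenly. Smooth muscle markers summed to 42.3, 189 and 133 CPM in LA and 44.8 to 103 CPM in the supplemented libraries, with 8 of 10 negative. Nerve and Schwann cell markers were positive in 27 of 36 (median 0.30), with 8 higher and 5 lower at an unadjusted p under 0.05, and summed to 293 to 327 CPM in LA, 439 to 587 in MA and 300 to 359 in HA, so the higher sum was in MA. Myelin protein P0 (mpz), the main protein of peripheral myelin, had 59.7, 48.7 and 50.9 CPM in LA, 86.5 to 96.6 in MA and 62.6 to 64.3 in HA (0.52, SE 0.15, adjusted p = 0.352). Copies of 2',3'-cyclic-nucleotide 3'-phosphodiesterase-like, a myelin enzyme, went the other way (LOC113046939, -1.12, SE 0.33, adjusted p = 0.357, and LOC113047371, -1.02, SE 0.28, adjusted p = 0.337), and both fell without LA1 (adjusted p = 0.00988 and 0.0121). The former had 3.70 CPM in LA1, 12.9 and 10.3 in LA2 and LA3 and 2.89 to 4.78 in the supplemented libraries. Red cell (6 of 10 positive), endothelium (11 of 24), skin epithelium (5 of 12) and fibroblast markers (5 of 17) had sums that overlapped between LA and the supplemented diets. Of 88 genes of antigen presentation and the IMAP family, 10 were lower (11.4%, against 5.12% of all genes) and 4 higher (4.55%, against 3.68%) at an unadjusted p under 0.05. Interferon regulatory factor 6-like (LOC113064666), known from epithelia, had 2.27, 12.2 and 7.39 CPM in LA and 0.628 to 1.49 CPM in the supplemented libraries (-2.74, SE 0.43, adjusted p = 0.220).

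**Figure D4:**
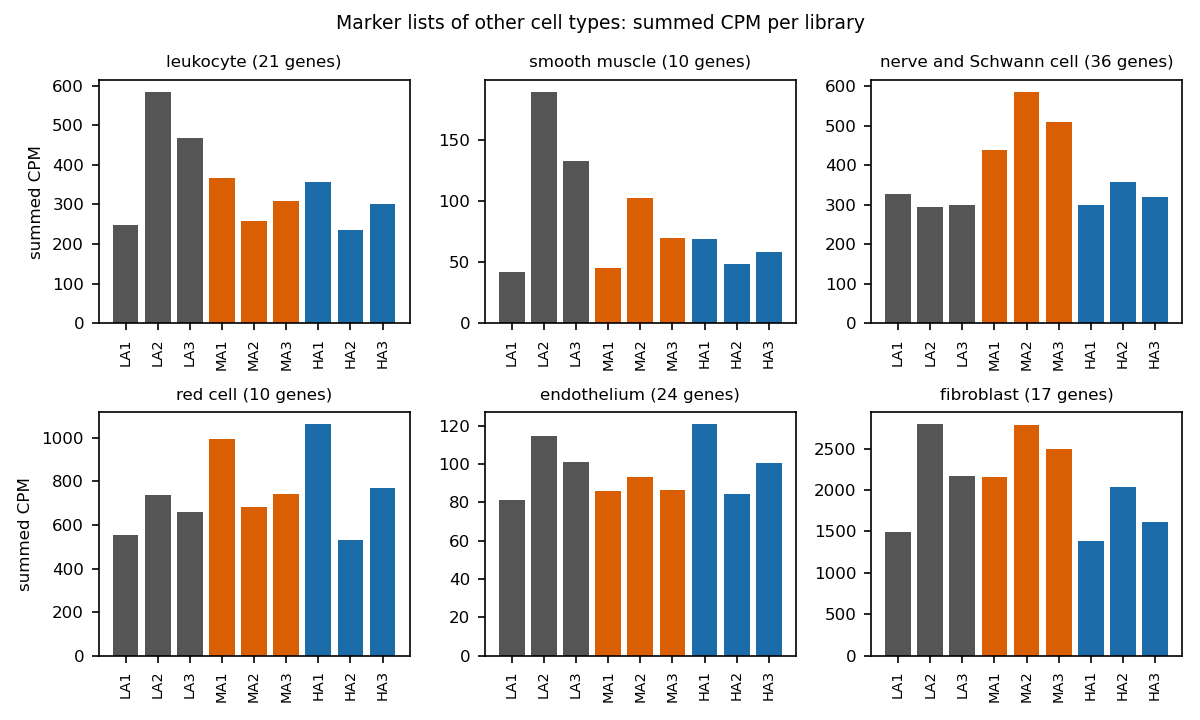
Summed TMM-scaled CPM (vertical axis from 0) of the tested markers of 6 other cell types in each library, colored by diet. Leukocyte and smooth muscle sums stand high in LA2 and LA3 (585 and 467, and 189 and 133 CPM) but not in LA1, and nerve and Schwann cell sums are highest in the 3 MA libraries.

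Of 255 collagen, matrix and integrin genes, 17 were higher (6.67%, against 3.68% of all genes) and 21 lower (8.24%, against 5.12%) at an unadjusted p under 0.05. Collagen alpha-6(VI) chain-like (LOC113092945), of the beaded filament around muscle fibers, had 0, 45.6 and 26.6 CPM in LA and 0 to 0.714 CPM in the supplemented libraries (-7.61, SE 1.31, adjusted p = 0.228). Collagen alpha-1(VI) chain-like (LOC113055322) had 0.0711, 60.3 and 36.5 CPM in LA and 0.0640 to 1.04 elsewhere (-6.72, SE 1.19, adjusted p = 0.245), and collagen alpha-2(VI) chain-like (LOC113055321) 0.142, 26.3 and 18.1 CPM and 0 to 1.23 (-5.77, SE 1.08, adjusted p = 0.245). These copies were thus abundant in LA2 and LA3 and nearly absent from LA1 and all supplemented libraries. Another collagen alpha-6(VI) chain-like copy (LOC113115986) kept 60.1 CPM in LA1, 127 and 95.3 in LA2 and LA3 and 45.2 to 56.2 in the supplemented libraries (-0.91, SE 0.21, adjusted p = 0.279). Of 123 actin cytoskeleton regulators, 11 were lower (8.94%, against 5.12% of all genes) and 2 higher (1.63%, against 3.68%) at an unadjusted p under 0.05.

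Among single libraries left out, the number of calls turned mainly on LA1. It also turned on the method, with 220 calls in DESeq2 and 349 in edgeR without a low-count filter. Leaving out LA1 turned the comparison from 1 call into 440 of 25370 genes (1.73%), 46 higher (0.181%) and 394 lower (1.55%), 439 with the same sign in both diets. That step also took away the LA library of lowest mapped share, while MA2 and HA2, the lowest of their diets, stayed. The confounding of diet with mapped share was partial, since MA1 lay above LA2 in mapped share and HA1 above LA3. The part of mapped share in these calls was not tested. Leaving out LA2 or LA3 gave 0 calls, with 1607 and 1205 genes at an unadjusted p under 0.05. Of the 440 genes called without LA1, 344 were among those tested with all 9 libraries. The others passed the low-count filter once LA1 was left out, so the 2 counts of calls rest on different gene sets. In 437 of the 440 genes LA2 and LA3 lay apart from all 6 supplemented libraries, and in 365 LA1 lay inside or beyond the range of the supplemented libraries. Leaving out LA1 favors such genes by construction, so these counts describe the genes and support nothing, and over all tested genes LA1 lay inside that range in 66.3% (LA3 in 75.5%). LA3 lay anywhere between LA1 and LA2 in 408 of the 440 (92.7%). With neither LA1 nor HA2, 560 genes passed (2.23%), 107 higher (0.427%) and 453 lower (1.81%), and these held 416 of the 440 (94.5% of them and 74.3% of the 560). The genes named next had the smallest p without LA1 or passed there as list members, were picked after values had been seen, and are given with their LA1 values.

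Of the genes that fell without LA1, C-X-C chemokine receptor type 4-B-like (LOC113053577), which guides leukocyte migration, had 1.85 CPM in LA1, 34.3 in LA2, 20.3 in LA3 and 1.45 to 2.66 in the supplemented libraries (-3.60, adjusted p = 0.000524). Regulator of G-protein signaling 13-like (LOC113039907) had 2.27, 16.8 and 12.8 CPM in LA and 1.43 to 2.96 in the supplemented libraries (-2.93, adjusted p = 0.000500). Complement factor B-like (LOC113038495), of the alternative complement pathway, had 0.782, 17.5 and 11 CPM in LA and 0.384 to 1.12 elsewhere (-4.23, adjusted p = 0.000600). Of the leukocyte markers 7 of 21 fell, including receptor-type tyrosine-protein phosphatase C-like (-1.0, adjusted p = 0.0175), whose LA1 value was above every supplemented library, and both coronin-1A-like copies (LOC113047042, -1.90, adjusted p = 0.00171, and LOC113046356, -1.77, adjusted p = 0.00313). Of the matrix list 10 fell and 2 rose, and 4 of those that fell were integrin alpha-M-like, alpha-L-like, alpha-X-like and beta-2-like copies, which are known from leukocytes in mammals. The beta-2-like copy is also 1 of the 7 leukocyte markers that fell, so it is counted in both lists. Over all genes tested without LA1, 1.55% fell and 0.181% rose. Of the smooth muscle markers 2 fell, and whether cell composition took part in these differences was not tested.

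Of the 46 genes that rose without LA1, homeobox protein Hox-C8a (LOC113065715), which sets position along the body axis, had 13.7, 6.25 and 7.46 CPM in LA, 34, 26.6 and 30.5 in MA and 23.7, 15.7 and 21.6 in HA (1.86, adjusted p = 0.00615). Its LA1 value was still the highest of LA but below all supplemented libraries. Copies of mitochondrial glycine amidinotransferase, the first enzyme of creatine synthesis, whose product is methylated at the expense of S-adenosylmethionine, rose as well. LOC113118439 had 32.8, 15.3 and 18.2 CPM in LA, 51.4, 46.9 and 48.0 in MA and 37.1, 32.5 and 29.2 in HA (1.26, adjusted p = 0.0137). LOC113061329 had 15.1, 6.25 and 8.46 CPM in LA, 34.1, 26.8 and 27.4 in MA and 10.7, 13.4 and 13.1 in HA (1.38, adjusted p = 0.0173). LA1 lay within the HA range of the former and above that of the latter, and with all 9 libraries the log2 fold changes were 0.86 (SE 0.24, adjusted p = 0.353) and 0.94 (SE 0.27, adjusted p = 0.355). Neutral amino acid transporter B(0)-like (LOC113115267), an importer of glutamine, also rose (1.28, adjusted p = 0.0411), from 21.4 and 37.8 CPM in LA2 and LA3 to 58.2 to 80.4 CPM in the supplemented libraries, with 69.3 CPM in LA1.

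**Figure D5:**
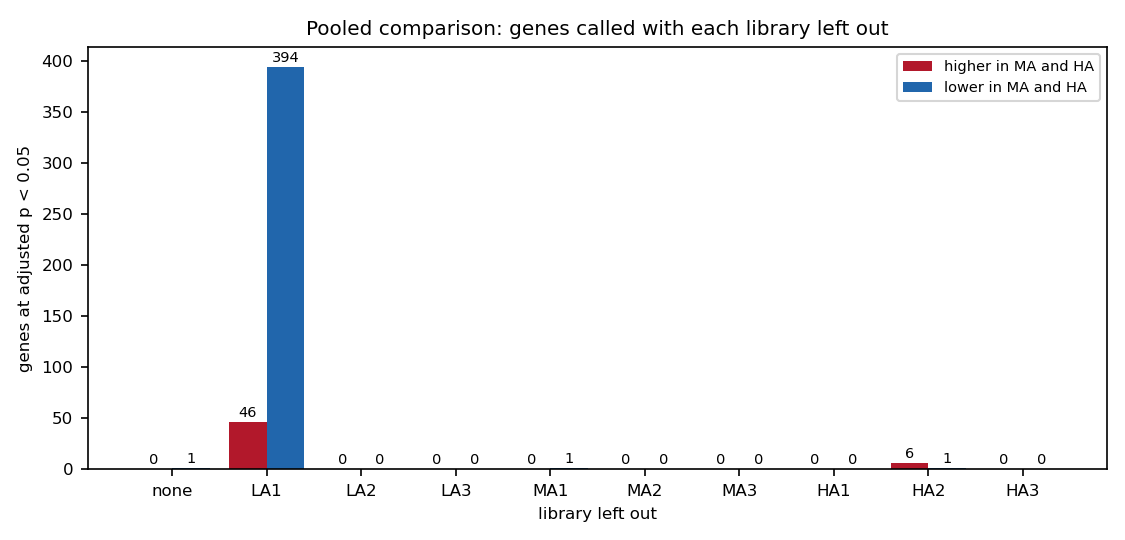
Number of genes at an adjusted p under 0.05 (vertical axis, linear) in the pooled comparison with all 9 libraries and with each library left out in turn, split into genes higher and lower in the supplemented libraries. Without LA1 there are 46 and 394, without HA2 6 and 1, and at most 1 call in every other case.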

How the data were processed

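The authors deposited 1 table of read counts (whole numbers) and FPKM values for 9 muscle libraries of poly(A) RNA, on gene models whose IDs and coordinates are those of goldfish ASM336829v1. DESeq2 is named in the submitters' processing notes; the sources used here do not give the aligner, the counter or the use of strand. The deposited FPKM values were not tested. Of 76298 gene IDs, 69688 matched the RefSeq gene table of the same assembly, and 48369 had a count.

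Genes passing filterByExpr by diet were scaled with TMM factors and fitted in edgeR 4.0.16 (R 4.3.3) by quasi-likelihood, with 1 coefficient for each diet, 6 residual degrees of freedom and a common dispersion of 0.135. The contrast took LA from the mean of MA and HA, and genes whose Benjamini-Hochberg adjusted p was under 0.05 were called. SE is the absolute log2 fold change over the square root of F. Gene lists were built from symbols and name patterns, 54 wrong matches were removed after values had been seen, and lists are described by counts and medians. Members, lists and rules were chosen with earlier results of these data known. No replicate of the feeding trial is tied to a library by the labels. The p-values and the 6 residual degrees of freedom take the libraries of a diet as independent replicates, which was not shown.

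The genes named were, in each direction, the 5 of smallest p that moved alike in both diets, up to 4 of smallest p in each list, and genes of the study's primers, with genes of smallest p without LA1 added after values were seen. A gene selected in this way is left out and not reported here. On simulated counts of 23036 genes, the same steps recovered 10% of well-counted genes whose true log2 change was 1 in size, 82% for 2, 92% for 3 and 100% for 5, with 4 false among 146 calls and 0 calls where nothing changed; simulated libraries were independent of each other. Other settings tried were RLE factors, no low-count filter, 10 counts or more in each library, DESeq2 1.42.0, a shared coefficient for the supplemented libraries, replicate number as block, mapped share (from the mapping statistics of the study) as covariate, and leaving libraries out.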

Additional observations from a re-analysis of the deposited data

Results flagged for a closer look

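In 4 of the genes named above the change against LA differed between the supplemented diets in edgeR's test of HA minus MA, adjusted over all genes. GTPase IMAP family member 8-like (LOC113054740) was higher in HA than in MA by 7.409 on the log2 scale (adjusted p = 0.00574), and so was the uncharacterized gene LOC113109525, by 4.594 (adjusted p = 0.0270). Parvalbumin-7-like (LOC113039862) had an HA minus MA difference of -4.801 (adjusted p = 0.00607), and the fast myosin heavy chain copy LOC113094704 of -6.398 (adjusted p = 0.0270). All 3 HA libraries lay on the same side of all 3 MA libraries in each of these genes. Both diets held the same added Lys, and the cause of these differences was not tested.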

How the results depend on the processing

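With 9 libraries edgeR called 1 gene, 1 of them common to both diets and 1 of those different between HA and MA; these counts were the same with RLE size factors. Without a filter on low counts they were 349, 342 and 31, with DESeq2 220, 213 and 32, and with the mapped share as a covariate 19, 16 and 9. With neither LA1 nor HA2 they were 560, 559 and 16, and after dropping library 3 of every diet 0, 0 and 0 (365 genes at an unadjusted p under 0.05). With 1 coefficient for all 6 supplemented libraries 0 genes were called (1789 at an unadjusted p under 0.05). With at least 10 counts in every library 1 gene was called, which was higher, and 0 of the common genes differed between HA and MA. Leaving out 1 library at a time gave 0 to 440 calls, 0 to 439 common genes and 0 to 8 different between the diets, with the highest values without LA1. By the looser rule the count ranged from 237 of 25384 to 1098 of 25370 genes (without LA3 and LA1). Non-overlapping genes ranged from 958 of 25121 to 3927 of 25370 (without MA3 and LA1). Smaller groups lie apart more easily by chance, so these counts cannot be set against the 774 with all 9 libraries. A check of the replicate numbers gave correlations of -0.60 to 0.27 between same-numbered libraries, and 5 of 9 libraries were closest to one of their own number, so the numbers were not taken as pairs. With the replicate number as a block 1 gene was called, which was higher, 0 of the common genes differed between HA and MA, and GTPase IMAP family member 8-like had an adjusted p of 0.175. The test of HA against MA under each setting, the counts of non-overlapping libraries and the lists without LA1 or without LA1 and HA2 were chosen after seeing the data. None of the 70 genes named with their values changed sign under any of these settings in which they were tested. These genes were picked mainly for small p in the same libraries, so a kept sign adds no support. With 6 residual degrees of freedom, and the library resemblances above, few changes of 1 on the log2 scale could be called (10% in the simulation, whose libraries were independent), and a gene that was not called is not shown to be unchanged.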
